A study of Mus musculus with 6 samples.

Results

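The lysosome is kept acidic by the vacuolar proton pump (V-ATPase), and 42 protein-coding genes of this pump, of the lysosomal membrane and of the Ragulator complex were followed here in macrophages. They were chosen by gene name only, from 54532 genes in the tables: every gene whose symbol begins with Atp6v1 or Atp6v0 (subunits of the V1 and V0 sectors), the accessory subunits Atp6ap1 and Atp6ap2, Lamtor1 to Lamtor5, and 12 further genes of the lysosomal membrane, its lumen and its transcriptional control. The cells were C57BL/6 mouse macrophages cultured from bone marrow, as the sample labels have it, while the title of the series has them as derived from monocytes. The siCXCR4 group carried a small interfering RNA (siRNA) against CXCR4, the receptor of the chemokine CXCL12, and the siNC group a control siRNA. In the tables the value columns are instead headed with names that start with mko for siCXCR4 and wt for siNC. These headings are not explained, so whether they stand for a knockout is not known here, and the groups are named by their labels. Lipopolysaccharide (LPS), from the outer membrane of bacteria, had been given to all cells of both groups at 100 ng/ml for 12 hours, so no comparison with cells that lacked LPS is made. The labels give 3 samples per group, but the table of siNC replicate 3 repeats siNC replicate 2 as counts, with equal reads in each of the 19072 genes that had any. Because they differed by less than sampling noise, they were counted as 1 sample, which leaves 3 siCXCR4 and 2 siNC libraries.

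In the V-ATPase, the V1 sector in the cytosol hydrolyses ATP and thereby turns a rotor in the V0 sector, which carries protons across the membrane. Ragulator, made of the LAMTOR proteins, anchors the Rag GTPases to the lysosomal surface, where amino acids activate the kinase complex mTORC1. The transcription factors TFEB and TFE3 are held in the cytosol by mTORC1 activity and otherwise switch on lysosomal genes. In macrophages this compartment degrades what phagocytosis brings in.

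TFEB and TFE3 bind DNA at E-boxes with the letters CACGTG, and a longer form of these is known as the CLEAR element of lysosomal promoters. RefSeq promoter windows (GRCm38.p6, 250 bases before to 50 bases after the start) were at hand for 34 of the 42 genes. The letters TCACGTG, searched on both strands, stood in 8 of these 34 (23.5%), beside 4.29% of 27025 genes with a window and 7.79% of the 7328 among them that were tested. CACGTG alone, which these letters contain, was in the same 8 promoters (23.5%), in 8.09% of all and in 12.7% of tested genes. TCACGTGA was in 4 (11.8%, beside 1.12% of all and 2.51% of tested genes). The palindrome that adds a G before and a C after these letters was in 0 (beside 0.37% of all and 0.969% of tested genes). The 34 genes include members that were not tested, so the shares of tested genes are no like measure for these percentages. Among tested members with a window, 8 had TCACGTG and 19 had not. The 8 stretches are shown because they hold the E-boxes of genes whose transcripts are described below. They are written along the strand of the gene with the match, TCACGTG or its reverse complement CACGTGA, in capitals and 17 bases on either side.
Atp6v1a, chr16:44139367-44139408 (minus strand): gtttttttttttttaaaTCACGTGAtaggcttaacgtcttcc
Atp6v0b, chr4:117887325-117887383 (minus strand): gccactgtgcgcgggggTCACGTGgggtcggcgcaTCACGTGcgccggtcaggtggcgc
Atp6v0d1, chr8:105566044-105566085 (minus strand): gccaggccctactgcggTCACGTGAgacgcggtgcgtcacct
Atp6v0e, chr17:26676381-26676422 (plus strand): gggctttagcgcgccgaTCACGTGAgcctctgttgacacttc
Lamtor1, chr7:101905751-101905791 (plus strand): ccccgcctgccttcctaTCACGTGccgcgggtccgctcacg
Lamtor4, chr5:138255345-138255400 (plus strand): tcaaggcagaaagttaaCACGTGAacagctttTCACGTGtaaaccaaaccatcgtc
Lamp1, chr8:13159082-13159168 (plus strand): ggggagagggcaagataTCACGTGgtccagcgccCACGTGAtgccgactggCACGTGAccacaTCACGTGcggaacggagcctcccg
Mcoln1, chr8:3500430-3500497 (plus strand): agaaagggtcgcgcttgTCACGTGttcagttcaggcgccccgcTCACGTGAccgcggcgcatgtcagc
The Lamp1 promoter held 4 such matches, with the first letter C of their CACGTG cores between 61 and 15 bases before the start. Those of Atp6v0b, Lamtor4 and Mcoln1 held 2 each. A match is a description of letters and not a measured binding site.

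The 5 libraries held 18890751 to 21780840 reads in genes. Levels are given in FPKM, fragments or reads per kilobase of exon length scaled to the library total, as deposited. The totals that these values imply held reads outside the genes. Their share was 2.8% and 2.15% in the siNC libraries, against 0.00033%, 0.312% and 1.37% in the siCXCR4 libraries. A larger share lowers all FPKM of a library, and its part in the differences was not tested. Differences are log2 fold changes, siCXCR4 minus siNC, of FPKM + 1, with their standard error (SE). Cxcr4, the siRNA target, was at 31.1, 36.2 and 32.7 FPKM in the siCXCR4 libraries, against 41.3 and 42.1 FPKM in the siNC libraries (log2 fold change -0.32, SE 0.0704, limma adjusted p = 0.457). All siCXCR4 values thus lay below both siNC values, and most of the transcript was still present. All 7 macrophage markers examined, among them Adgre1, Csf1r and Lyz2, were above 1 FPKM, with a summed level of 3627 to 3991 FPKM in siCXCR4 and 3781 to 4073 FPKM in siNC. Of 7 neutrophil markers, S100a8, S100a9, Camp and Ngp were above 1 FPKM, while Ly6g, Elane and Mpo were not. The summed level of all 7 was 81.8 to 96.7 FPKM in siCXCR4 and 103 to 106 FPKM in siNC. S100a9 was at 37.71 to 46.18 FPKM in siCXCR4 and 52.45 to 52.86 FPKM in siNC. In the same order, S100a8 was at 10.68 to 13.31 and 15.35 to 18.22 FPKM. Camp (4.271 to 5.104 and 5.019 to 5.561 FPKM) and Ngp (27.4 to 34.45 and 29.18 to 29.78 FPKM) overlapped. The part of these differences in the results below was not tested. No marker of dendritic, B, T or NK cells, fibroblasts or erythroid cells reached 1 FPKM. In such bulk RNA, fewer cells of a type and less RNA per cell cannot be told apart.

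Of the 42 genes, 35 had a mean of at least 1 FPKM and were tested together with all other genes above that level, and the other 7 stayed at or below 0.274 FPKM in every library. By limma, 0 of the 35 passed an adjusted p under 0.05, as did 0% of the 9943 genes tested, and the members' adjusted p ran from 0.512 to 0.999. Adjusted p-values given below are those of limma. At an unadjusted p under 0.05, 1 member was higher in siCXCR4 (Tfe3) and 3 were lower (Lamtor4, Laptm4a and Atp6v1f), beside 5.8% and 3.54% of all genes tested in these directions. On whole reads, edgeR called 0 members and 0.133% of the 12794 genes that passed its own filter at an adjusted p under 0.05. At an unadjusted p under 0.05 edgeR had Tfe3 as higher and 6 members as lower (Atp6v1f, Laptm4a, Lamtor2, Lamtor4, Atp6v0e and Cd63), beside 4.46% and 5.27% of those 12794 genes. DESeq2 called 0 of 41 members and 0.12% of the 23311 genes with any read. These numbers include genes of few reads, such as Atp6v1g2, to which DESeq2 gave no adjusted p and which could not be called. At an unadjusted p under 0.05 DESeq2 had 1 member higher (beside 1.62% of the 23311 genes) and 3 lower (beside 1.36%). This set takes in genes with very few reads, so its shares are no like measure for the members or for the limma shares. The limma counts depended on single libraries. Without siCXCR4 replicate 2 they were 2 higher and 8 lower, beside 7.92% and 6.18% of genes, while 0.0201% of genes and 0 members passed the adjusted p. Without siCXCR4 replicate 1 they were 0 higher and 1 lower (beside 3.19% and 2.85% of genes), and without siCXCR4 replicate 3 they were 1 higher and 0 lower (beside 4.2% and 2.81%). Without siNC replicate 1 they were 0 and 0 (beside 3.35% and 2.3%), and without siNC replicate 2 they were 2 and 2 (beside 3.58% and 2.83%). In each of these last fits 1 siNC library remained and was assumed to vary like the siCXCR4 group.

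The members' differences were small on either side of 0. The median log2 fold change of the 35 was 0.01, the same as over all genes tested, and 20 members lay above 0 (57.1%, beside 56.4% of all genes). The lowest value was -0.21 (Lamtor2) and the highest 0.15 (Cd68). Half-widths of the 95% intervals ran from 0.115 to 0.224, so that no interval reached below -0.43 or above 0.32. The groups did not overlap in 11 members with higher siCXCR4 values and in 8 with lower ones, beside 17.9% and 9.92% of all genes tested. Among genes of 5 FPKM or more on average these shares were 22.5% and 8.2%, and 11 and 7 of 34 members. With the libraries rescaled by TMM, a scaling factor that assumes most genes to be equal, the counts were 8 higher and 8 lower, beside 14.4% and 12.1% of all genes, since the groups of Tfeb, Atp6v1b2 and Npc2 then overlapped. The median log2 fold change over all genes tested was 0.015 as deposited and 0.002 with TMM.

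**Figure D1:**
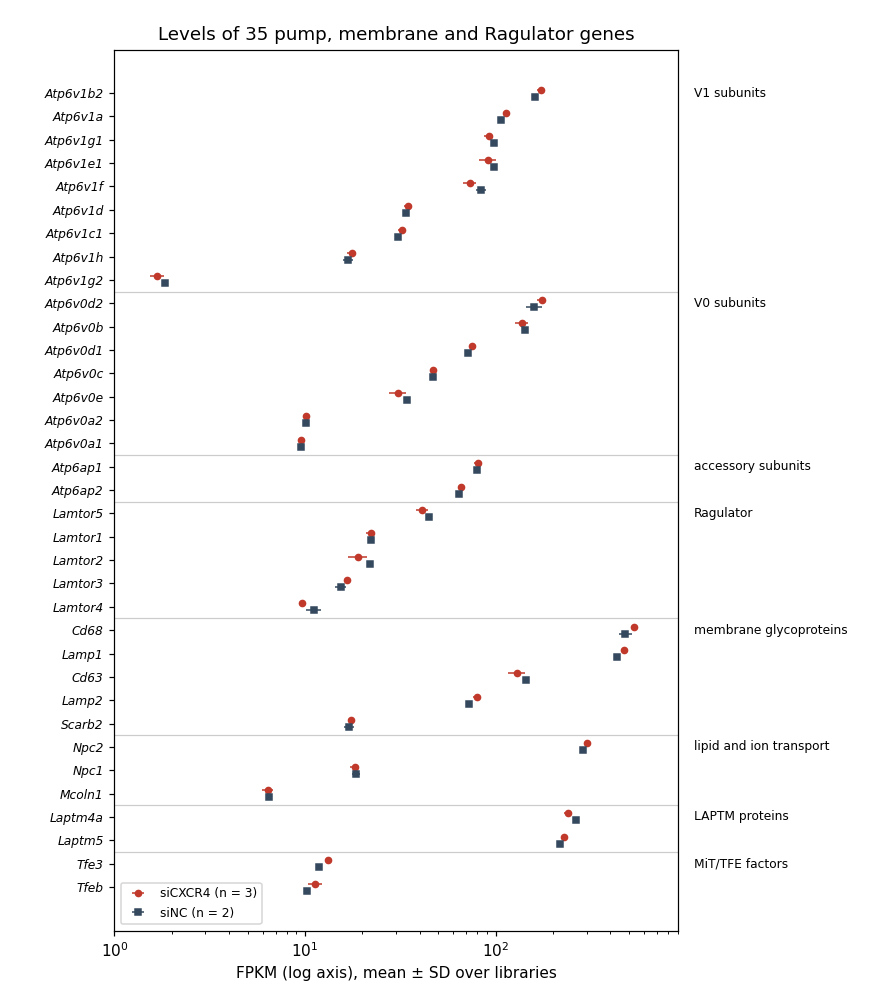
Levels of the 35 tested genes by role, in FPKM on a log axis; red circles are the means of the 3 siCXCR4 libraries and dark squares those of the 2 siNC libraries, with SD. Levels ran from Atp6v1g2, at 1.68 FPKM in siCXCR4 and 1.84 FPKM in siNC, to Cd68, at 531 and 479 FPKM.

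The V1 sector is described first. Atp6v1b2 and Atp6v1a, which encode the B and A subunits that form the catalytic head, were the most abundant V1 transcripts. Atp6v1b2 was at 179, 165 and 174 FPKM in siCXCR4, against 159 and 164 FPKM in siNC (log2 fold change 0.10, SE 0.0566, adjusted p = 0.623). Atp6v1a was at 111, 113 and 116 FPKM in siCXCR4, against 105 and 109 FPKM in siNC (0.08, SE 0.0493, adjusted p = 0.63). In both genes all siCXCR4 values lay above the siNC values, for Atp6v1b2 by less than 1 FPKM. Subunits of the central rotor and the stalks lay the other way or near 0. Atp6v1f, the small F subunit of the central stalk, was at 70.0, 79.6 and 69.5 FPKM in siCXCR4, against 87.4 and 80.3 FPKM in siNC (-0.20, SE 0.0766, 95% interval -0.38 to -0.02, adjusted p = 0.515). The groups did not overlap, though siCXCR4 replicate 2 and siNC replicate 2 lay close together. Atp6v1g1, the G subunit of the peripheral stalks, was at 88.1, 96.9 and 90.3 FPKM in siCXCR4, against 99.6 and 97.2 FPKM in siNC (-0.10, SE 0.0576, adjusted p = 0.617). Its partner in those stalks, the E subunit Atp6v1e1, was at 92.3, 99.4 and 81.7 FPKM in siCXCR4, against 97.4 and 99.1 FPKM in siNC, and the groups overlapped (-0.11, SE 0.0837, and -0.04 without siCXCR4 replicate 3).

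Of the remaining V1 genes, Atp6v1d, the D subunit of the rotor, was at 33.4 to 36.1 FPKM in siCXCR4 and 33.5 to 34.5 FPKM in siNC. Atp6v1c1 (C subunit) was at 30.9 to 33.4 FPKM in siCXCR4 and 30.3 to 31.3 FPKM in siNC. Atp6v1h (H subunit, which holds free V1 inactive) was at 16.6 to 18.2 FPKM in siCXCR4 and 16.2 to 17.6 FPKM in siNC. The groups overlapped in all 3. The G2 gene Atp6v1g2, known from neurons, was at 1.52 to 1.77 FPKM in siCXCR4 and 1.80 to 1.88 FPKM in siNC, from 74 to 104 reads per library. It overlaps Nfkbil1 on the opposite strand, which had a mean of 511 reads against 90, and whether reads were counted by strand is not stated, so these reads cannot be told apart. The alternative forms Atp6v1b1, Atp6v1c2, Atp6v1e2 and Atp6v1g3, best known from kidney, testis and other specialised tissues, stayed below the filter with at most 6 reads in a library. So did Atp6v1fnb, a gene that neighbours Atp6v1f and is matched by its name alone.

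In the V0 sector 7 of 9 genes were tested, and none had an unadjusted p under 0.05 by limma. The most abundant was Atp6v0d2, the d2 form of the subunit that links V0 to the rotor, known from osteoclasts and macrophages. It was at 179.9, 164 and 178 FPKM in siCXCR4, against 148 and 169.9 FPKM in siNC (0.13, SE 0.0767, adjusted p = 0.617). The groups overlapped, with siNC replicate 1 as the lowest library, and the value was 0.03 without it and 0.23 without siNC replicate 2. The widely expressed form Atp6v0d1 was at 75.3, 74.0 and 76.6 FPKM in siCXCR4, against 73.1 and 69.6 FPKM in siNC (0.08, SE 0.0494, adjusted p = 0.659), with no overlap. The d2 form therefore made up 70.5%, 68.9% and 70% of the summed FPKM of both forms in siCXCR4 and 66.9% and 70.9% in siNC, which overlap. Of 6 osteoclast markers, 4 were at 1 FPKM or more on average. Acp5 was at 309 to 338 FPKM in siCXCR4 and 325 to 341 FPKM in siNC. Ctsk was at 26.31 to 30.94 FPKM in siCXCR4 and 25.33 to 26.2 FPKM in siNC. In the same order, Dcstamp was at 9.88 to 10.28 and 10.21 to 12.49 FPKM, and Ocstamp at 1.795 to 2.142 and 1.314 to 1.512 FPKM. Oscar stayed at or below 0.112 FPKM. Calcr, the calcitonin receptor, was at 0 in 4 libraries and at 0.0235 FPKM in siCXCR4 replicate 1.

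The small V0 subunits are membrane proteins of the rotor ring and its surroundings. Atp6v0e was at 29.3, 34.3 and 28.4 FPKM in siCXCR4, against 35.1 and 33.5 FPKM in siNC (-0.16, SE 0.0857, adjusted p = 0.599). Atp6v0b, a ring subunit, was at 132, 149 and 129 FPKM in siCXCR4, against 144 and 141 FPKM in siNC (-0.07, SE 0.0718). In both genes siCXCR4 replicates 1 and 3 were below the siNC libraries and siCXCR4 replicate 2 was among or above them. Atp6v0c, which encodes the main ring subunit, was at 45.73 to 48.22 FPKM in siCXCR4 and 46.04 to 47.32 FPKM in siNC (0.01, SE 0.0491). Reads of this gene could be split with copies such as the processed pseudogene Atp6v0c-ps2, which was at 2.58 to 4.15 FPKM in siCXCR4 and 2.51 to 3.31 FPKM in siNC.

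The a subunit, through which protons enter and leave, was represented by Atp6v0a1 at 9.32 to 9.74 FPKM in siCXCR4 and 9.45 to 9.68 FPKM in siNC, and by Atp6v0a2 at 9.89 to 10.5 FPKM in siCXCR4 and 9.96 to 10.2 FPKM in siNC. The kidney form Atp6v0a4 had 0 reads in every library, and Atp6v0e2 had at most 1 read. The form of lysosomes and osteoclasts, a3, is encoded by Tcirg1, which the name rule does not match and which was added after its values were seen. Tcirg1 was at 247, 246 and 246 FPKM in siCXCR4, against 237 and 231 FPKM in siNC (0.07, SE 0.0476, adjusted p = 0.659). It made up 92.5% to 92.6% of the summed FPKM of the a forms in siCXCR4 and 92.2% to 92.3% in siNC. Atp6ap1, an accessory subunit needed for pump assembly, was at 78.3, 84.3 and 78.8 FPKM in siCXCR4, against 81.0 and 78.2 FPKM in siNC (0.01, SE 0.0547). Atp6ap2, also known as the prorenin receptor, was at 67.3, 63.8 and 66.6 FPKM in siCXCR4, against 64.5 and 64.4 FPKM in siNC (0.03, SE 0.0487).

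**Figure D2:**
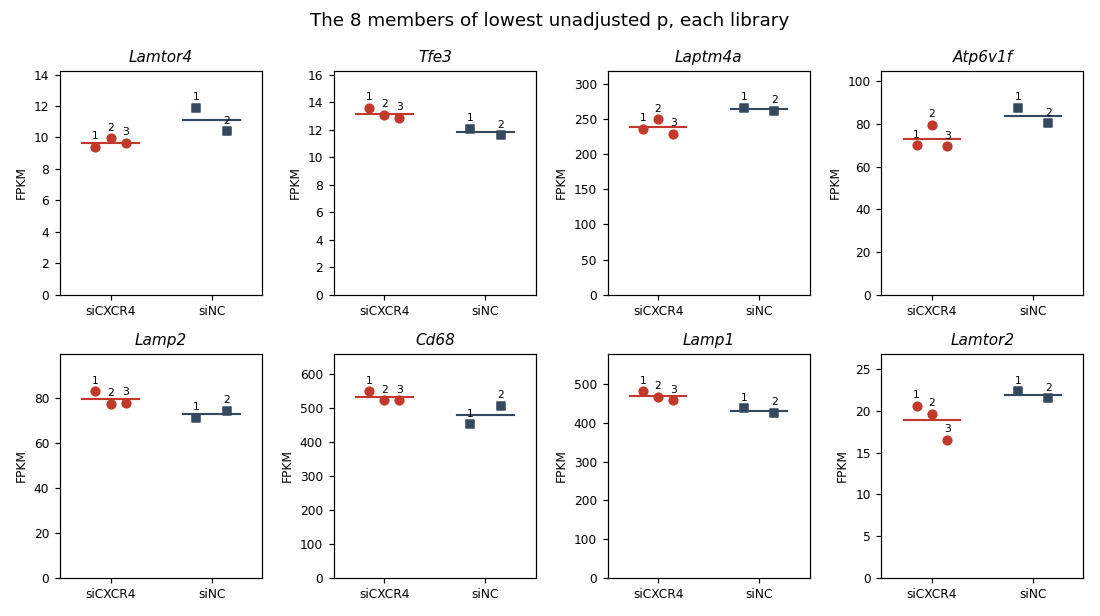
FPKM of the 8 members of lowest unadjusted p in each library; red circles are siCXCR4, dark squares siNC, lines are group means and digits are replicate numbers. The groups do not overlap in any of the 8, but picking by p favours such genes, so this adds no evidence. Of all genes tested, 27.8% had groups that did not overlap. For Atp6v1f, siCXCR4 replicate 2, at 79.6 FPKM, lies just below siNC replicate 2 at 80.3 FPKM.

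Among the 5 Ragulator genes 4 lay below 0, with a median of -0.12, which was -0.06 without siCXCR4 replicate 1. Lamtor4, which with Lamtor5 forms a pair of roadblock-fold proteins inside the complex, was at 9.41, 9.95 and 9.66 FPKM in siCXCR4, against 11.9 and 10.4 FPKM in siNC. All siCXCR4 values were lower (-0.18, SE 0.0669, 95% interval -0.34 to -0.02, adjusted p = 0.512), and the value was -0.10 without siNC replicate 1 and -0.27 without siNC replicate 2. Lamtor5 was at 37.5, 43.0 and 42.8 FPKM in siCXCR4, against 45.9 and 43.6 FPKM in siNC (-0.12, SE 0.0719, adjusted p = 0.622), and siCXCR4 replicate 1 stood lowest, with -0.06 when it was left out. Lamtor2, whose protein pairs with that of Lamtor3, was at 20.7, 19.7 and 16.6 FPKM in siCXCR4, against 22.4 and 21.5 FPKM in siNC (-0.21, SE 0.0933, adjusted p = 0.549, and -0.12 without siCXCR4 replicate 3). Its partner Lamtor3 lay the other way, at 16.8, 16.4 and 16.5 FPKM in siCXCR4, against 14.7 and 16.1 FPKM in siNC (0.10, SE 0.0566, adjusted p = 0.615, and 0.04 without siNC replicate 1). Lamtor1, the lipid-anchored scaffold that wraps the other subunits and fixes them to the membrane, was at 22.3, 23.1 and 20.8 FPKM in siCXCR4, against 22.5 and 21.8 FPKM in siNC (-0.01, SE 0.0595). The estimates for subunits that assemble in 1 complex thus lay on both sides of 0. Only the interval of Lamtor4 left out 0, and that of Lamtor3 ran from -0.03 to 0.24.

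The membrane glycoproteins had a median of 0.12, with 4 of 5 above 0. Lamp1, the main coat protein of the lysosomal membrane, was at 482, 467 and 458 FPKM in siCXCR4, against 438 and 426 FPKM in siNC (0.12, SE 0.0525, adjusted p = 0.544). Lamp2, its relative needed for fusion with autophagosomes and for chaperone-mediated autophagy, was at 82.9, 77.2 and 77.8 FPKM in siCXCR4, against 71.0 and 74.2 FPKM in siNC (0.13, SE 0.0545, adjusted p = 0.538). Cd68, a macrophage relative of the LAMP proteins, was at 549, 522 and 523 FPKM in siCXCR4, against 452 and 505 FPKM in siNC (0.15, SE 0.0661, adjusted p = 0.539). No siCXCR4 library of these 3 genes overlapped siNC, and for Cd68 the size depended on the siNC library, with 0.07 without siNC replicate 1 and 0.23 without siNC replicate 2. Cd63, a tetraspanin of late endosomes and exosomes, lay the other way at 129.7, 143 and 116 FPKM in siCXCR4, against 144 and 144 FPKM in siNC (-0.16, SE 0.0873, adjusted p = 0.615, and -0.08 without siCXCR4 replicate 3). Its processed pseudogene Cd63-ps, whose reads may in part be those of Cd63, was at 50.1, 55.9 and 43.2 FPKM in siCXCR4, against 59.7 and 55.6 FPKM in siNC, so Cd63 is uncertain. Scarb2, the receptor that carries glucocerebrosidase to lysosomes, was at 17.4, 17.5 and 17.5 FPKM in siCXCR4, against 17.7 and 16.3 FPKM in siNC (0.03, SE 0.0536).

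Cholesterol leaves the lysosome through NPC2, which binds it in the lumen, and NPC1 in the membrane. Npc2 was at 312, 304 and 292 FPKM in siCXCR4, against 279.8 and 291 FPKM in siNC (0.08, SE 0.0552, adjusted p = 0.661), and the nearest libraries of the groups differed by under 1 FPKM. Npc1 was at 17.1, 18.7 and 18.8 FPKM in siCXCR4, against 17.9 and 19.2 FPKM in siNC (-0.03, SE 0.0632), with overlap. It overlaps Rmc1 on the opposite strand, whose mean reads came to 27.2% of those of Npc1. Mcoln1, the calcium channel of the lysosomal membrane also called TRPML1, was at 6.11, 6.17 and 6.82 FPKM in siCXCR4, against 6.50 and 6.38 FPKM in siNC (-0.02, SE 0.0639).

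The LAPTM genes encode lysosomal transmembrane proteins that bind ubiquitin ligases of the NEDD4 family, and they lay on opposite sides of 0. Laptm4a was at 237, 249.8 and 229 FPKM in siCXCR4, against 266 and 262 FPKM in siNC (-0.15, SE 0.0564, 95% interval -0.28 to -0.01, adjusted p = 0.513). Laptm5, the form of blood cells, was at 231, 224 and 229.8 FPKM in siCXCR4, against 217 and 217 FPKM in siNC (0.07, SE 0.048, adjusted p = 0.667). The groups did not overlap in either gene.

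Both transcription factors of lysosomal genes lay above 0. Tfe3 was at 13.6, 13.1 and 12.8 FPKM in siCXCR4, against 12.1 and 11.6 FPKM in siNC (0.14, SE 0.052, 95% interval 0.02 to 0.27, adjusted p = 0.512). Its log2 fold change ran from 0.11 to 0.17 with any 1 library left out. Tfeb was at 12.3, 10.5 and 11.2 FPKM in siCXCR4, against 10.4 and 10.2 FPKM in siNC (0.12, SE 0.073, adjusted p = 0.619, and 0.07 without siCXCR4 replicate 1). The siCXCR4 values of Tfe3 lay apart from those of siNC, while siCXCR4 replicate 2 of Tfeb was within 0.1 FPKM of siNC replicate 1. Of their relatives, Tfec was at 3.96, 4.83 and 4.05 FPKM in siCXCR4, against 5.23 and 5.06 FPKM in siNC (-0.22, SE 0.0842, adjusted p = 0.512). Mitf was at 21.0, 21.9 and 21.9 FPKM in siCXCR4, against 20.9 and 21.8 FPKM in siNC (0.02, SE 0.0502). In GRCm38 coordinates, Tfe3 lies on the plus strand of chromosome X at 7762560 to 7775202. Lamtor4 lies on chromosome 5 at 138255482 to 138259398 (plus strand), Laptm4a on chromosome 12 at 8921664 to 8938742 (plus strand) and Atp6v1f on chromosome 6 at 29467718 to 29470512 (plus strand).

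**Figure D3:**
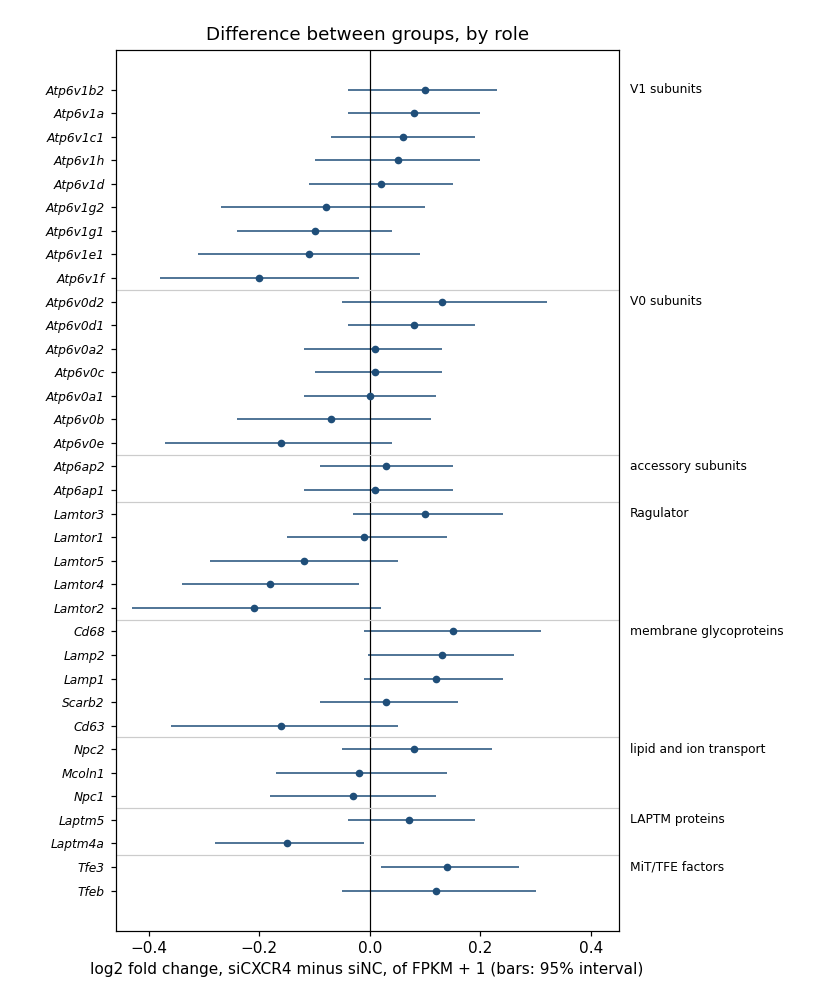
Log2 fold change of FPKM + 1, siCXCR4 minus siNC, for the 35 tested genes by role, with 95% intervals. Intervals of 4 genes (11.4%) leave out 0 (Atp6v1f, Lamtor4, Laptm4a and Tfe3). Beside this, 9.34% of all genes tested had an unadjusted p under 0.05 by limma. By limma 0 of the 35 passed an adjusted p under 0.05. Within V1, V0, Ragulator and the LAPTM pair the genes fall on both sides of 0.

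Of the 8 genes with TCACGTG in the promoter, 3 had a log2 fold change above 0 (median -0.01, from -0.18 for Lamtor4 to 0.12 for Lamp1). Of the 19 tested members whose window had none, 11 were above 0 (median 0.01, from -0.21 to 0.15).

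A feature that varied with the difference was exon length, which was examined after the values were seen. Across the 35 members, the Spearman correlation of exon length and log2 fold change was 0.42, and it was 0.08 across all 9943 genes tested, where it ran from 0.01 (without siCXCR4 replicate 3 and with a replicate block) to 0.14 (genes of 5 FPKM or more) over the alternative settings. Both are across genes that share the same 5 libraries. Of the 6 members with an exon length under 1500 bases, 1 was above 0 (Cd68), and the others were Lamtor2, Lamtor4, Lamtor5, Atp6v1f and Atp6v1g1. Their median was -0.15, while in the same length class of all genes the median was -0.06 and 38.1% were above 0. Of the 13 members of 5000 bases or more, 10 were above 0 (median 0.06), beside 58.2% of all genes of that length (median 0.02). The classes between did not follow this order: 4 of 7 members of 1500 to 3000 bases were above 0 (57.1%, beside 54.8% of all genes), and 5 of 9 members of 3000 to 5000 bases (55.6%, beside 65% of all genes). The members' correlation lay between 0.38 and 0.46 under every alternative setting and with each library left out. The part of length in the differences was not tested.

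**Figure D4:**
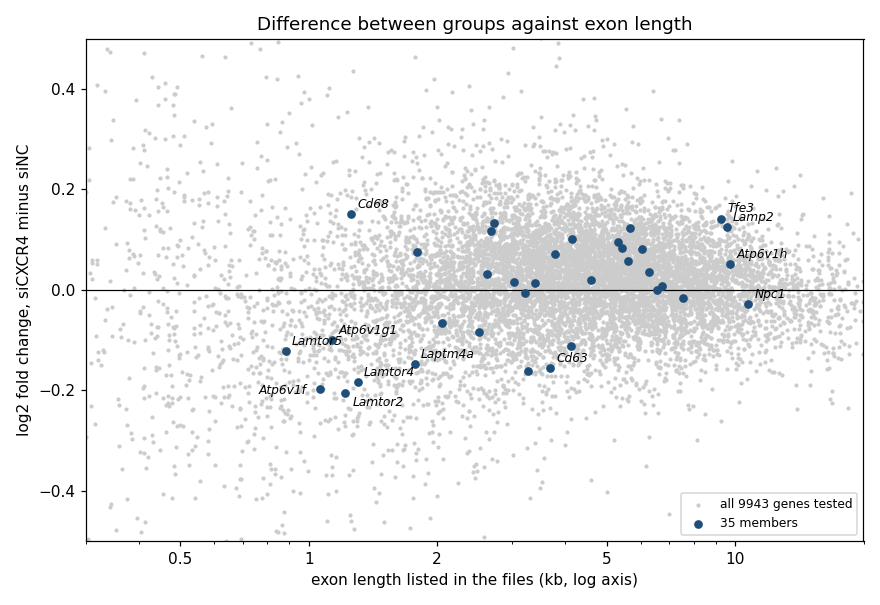
Log2 fold change, siCXCR4 minus siNC, against exon length in kilobases (log axis), for the 35 members (blue) and all genes tested (grey, of which 320 lie outside the axes). The short Ragulator and V1 genes lie below 0 and Cd68 above it.

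Which siCXCR4 library lay nearest to siNC was also recorded. Of the 15 members below 0, siCXCR4 replicate 2 had the highest siCXCR4 value in 10, and of the 20 members above 0 it had the lowest in 11. Over all genes tested it was nearest in this sense in 47.9% of the genes below 0 and 43.4% of those above 0.

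Other genes of the pathway were read from the same comparison, and limma called 0 of them at an adjusted p under 0.05, as did edgeR. Of 24 tested genes that signal through the Rag GTPases and mTORC1, 16 were above 0 (beside 56.4% of all genes tested; median 0.03, beside 0.01). At an unadjusted p under 0.05 by limma 3 of the 24 were higher and 1 was lower, beside 5.8% and 3.54% of all genes. Sesn2, a leucine sensor that restrains mTORC1, was at 40.2, 38.1 and 38.2 FPKM in siCXCR4, against 33.1 and 32.7 FPKM in siNC (0.23, SE 0.049, adjusted p = 0.438). Its relative Sesn1 lay the other way, at 1.67, 2.09 and 1.86 FPKM in siCXCR4, against 2.56 and 2.55 FPKM in siNC (-0.31, SE 0.0825, adjusted p = 0.486). Fnip2, a partner of folliculin, which acts on RagC and RagD, was at 54.2, 53.4 and 58.7 FPKM in siCXCR4, against 45.3 and 50.7 FPKM in siNC (0.20, SE 0.0696, adjusted p = 0.504, and 0.12 without siNC replicate 1). None of the siCXCR4 values of these 3 genes lay within the range of siNC, but the 3 were picked by lowest p, which favours this. Of the 24, the groups did not overlap in 7 with higher siCXCR4 values and 3 with lower ones. The shares over all genes tested were 17.9% and 9.92%.

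A further list held transporters and channels of the lysosomal membrane and some other proteins of it, such as Cd164. Of its 30 tested genes, 21 were above 0 (beside 56.4% of all genes), with a median of 0.03. By limma 3 had an unadjusted p under 0.05, all of them higher in siCXCR4, beside 5.8% of all genes higher and 3.54% lower. Mfsd12, which carries cysteine into lysosomes, was at 67.2, 64.0 and 65.6 FPKM in siCXCR4, against 58.2 and 60.1 FPKM in siNC (0.15, SE 0.0489, adjusted p = 0.504). The ATP-gated channel P2rx4 (0.13, SE 0.0494) and the sialomucin Cd164 (0.19, SE 0.0766, and 0.10 without siNC replicate 1) were the other 2. Of 9 tested assembly factors and regulators of the V-ATPase, 2 were above 0 (median -0.05), and 0 had an unadjusted p under 0.05. Dmxl1 and Dmxl2, the rabconnectins that help to rejoin V1 and V0, both had a log2 fold change of -0.09, with overlap. Of 10 tested genes of BORC, the complex that moves lysosomes along microtubules, and its partners, 6 were above 0 (median 0.02). Of these the lysosomal GTPase Arl8b was at 34.0, 33.8 and 34.2 FPKM in siCXCR4, against 31.7 and 32.9 FPKM in siNC (0.07, SE 0.0464).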

How the data were processed

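Total RNA of LPS-treated macrophages was sequenced. In 5 tables the authors deposited values read here as FPKM, though RPKM is possible because no header names a unit. Multiplied by gene length, 100% of values came out as whole reads at a fixed step (tolerance 0.05). The siNC replicate 3 table holds whole read counts as deposited by the authors. For aligner, counter and strand setting, the sources used here give nothing. The submitters' processing notes name mm9, but 98.3% of genes, and 39 of the 42 members, had their GRCm38 (GENCODE M21) position, so GRCm38 is used.

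The comparison used limma 3.58.1 (R 4.3.3; trend, robust, two-sided) on log2(FPKM + 1) of genes at 1 FPKM or more on average, with Benjamini-Hochberg adjustment over all 9943, in place of a count test. Of several entries with 1 symbol the highest was kept. edgeR 4.0.16 and DESeq2 1.42.0 on whole reads worked back were alternatives, as were other scalings, pseudocounts and filters, a replicate block, the copied table counted separately and each library left out. A fold change on this scale understates that of low genes. No label ties replicates to separate animals or cultures. The p-values thus measure only the spread between samples, which may be technical. Without molecular identifiers, reads are not independent molecules.

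The members, lists and tests were chosen with earlier results of these data known. Named with full statistics were, per role, the most abundant member and up to 4 of lowest p, and up to 3 genes per pathway list.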

Additional observations from a re-analysis of the deposited data

How the results depend on the processing

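No member passed an adjusted p under 0.05 by limma, edgeR or DESeq2 in any of the 16 alternatives, and the sign of 25 of the 35 members' log2 fold changes was the same in all. Over all genes, where limma called 0 (929 at an unadjusted p under 0.05), edgeR called 17, edgeR with no filter on low counts 205, DESeq2 28 and limma with the copied table as a separate library 4, and with 1 library left out limma called 0 to 2. Atp6v0a2 turned to -0.003 with DESeq2, to -0.01 with edgeR, with and without its filter, with TMM-rescaled FPKM and with the copied table, and to -0.004 with quantile normalization. Atp6v0c turned to -0.005 with edgeR, -0.001 with no filter there, -0.002 with TMM-rescaled FPKM and -0.01 with quantile normalization. Atp6ap1 turned to -0.003 with edgeR and -0.001 with quantile normalization, Atp6v1d to -0.01 with quantile normalization too, and Mitf to -0.0005, -0.01 and -0.003 with edgeR, quantile normalization and the copied table. The median of the accessory subunits was 0.01 with edgeR, TMM or quantile normalization, and that of Mitf and Tfec was 0.02 with a mean of at least 5 FPKM, which leaves Mitf alone. With 1 library left out, values turned within -0.04 to 0.03 for Lamtor1, -0.02 to 0.02 for Atp6v0a1 and Atp6v0a2, -0.01 to 0.03 for Atp6v0c, -0.01 to 0.04 for Atp6v1d, -0.005 to 0.11 for Atp6v1h, -0.02 to 0.04 for Atp6ap1, -0.06 to 0.01 for Mcoln1, -0.08 to 0.02 for Npc1, -0.02 to 0.09 for Scarb2 and -0.01 to 0.05 for Mitf. The cause was not tested.

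The groups share replicate numbers, and no label says whether same-numbered samples were paired. Deviations of same-numbered samples from their group means correlated at -0.04 (replicate 1) and -0.111 (replicate 2). With 2 siNC libraries the deviations of these are mirror images, so the correlations cannot decide whether samples were paired. With the number as a replicate block, limma called 0 genes, and 0 members had an unadjusted p under 0.05 (beside 2.53% of genes higher and 2.49% lower). Atp6v0a1 was at 0.02, Atp6v0a2 at -0.02 and Lamtor1 at 0.03. In this fit siCXCR4 replicate 3 had no siNC partner and added nothing to the difference. Its log2 fold changes are therefore those without siCXCR4 replicate 3, and the block also leaves less information on the spread. The counts of 0 cannot be set beside those of the main fit. The members' interval half-widths, 0.115 to 0.224, rest on the spread between libraries of the same group. In limma the spread of each gene is drawn towards that of all genes tested at a like level. Over the whole series, and not for the members alone, pairs within a group differed by a chi-square per gene of 4.16 to 7.95. Pairs across the groups, which include the group difference, differed by 4.2 to 11.3. The part of depth in the half-widths was not tested. A difference beyond its half-width, such as that of Cxcr4, could still miss the adjusted threshold. For Cxcr4 the adjusted p was 0.457 by limma, 0.0637 by edgeR and 0.0589 by DESeq2. By edgeR with no filter on low counts it was 0.000475.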
